A study of Mus musculus with 142 samples.

Results

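Oligodendrocyte progenitor cells (OPCs) carrying the histone mutation H3.3 K27M were taken from the brainstem or from the dorsal telencephalon of mouse pups, and the RNA of the 2 regional origins was compared after 5 days in differentiation medium. The compared libraries were chosen by their labels alone: 9 wells of K27M brainstem cells and 9 wells of K27M telencephalon cells, out of 142 libraries in the series. Each region had 3 culture lines, numbered 38, 41 and 42, with 3 wells a line. Pups of postnatal days 5 to 7 carried a K27M knock-in at the endogenous H3f3a gene (also called H3-3a) behind a stop cassette, which was removed by hGFAP-Cre. This Cre is driven by a human GFAP promoter active in neural stem and progenitor cells, so the cells were already K27M when they were collected. The dorsal telencephalon comprised cortex, corpus callosum and hippocampus. Tissue was pooled by region and genotype, endothelial cells and microglia were depleted on a lectin-coated dish, and OPCs were then captured with an antibody to PDGFRa. Cells were expanded with PDGF and neurotrophin-3, and the medium was then changed to one with thyroid hormone and without these 2 factors. Forskolin and CNTF were present in both media. The other groups used below were K27M brainstem and telencephalon cells at days 0, 1 and 2 of differentiation, and control cells of both regions. The control cells came from littermates, received the same media and were compared between regions at day 5. Control cells of days 0, 1 and 2 entered a fit of all 4 days, where they shared in its spread and culture number term. Wells of 1 line share their cells, so counts were summed per line and the replicate was the line (n = 3 a region).

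OPCs arise from progenitors along the whole neural axis, keep dividing while PDGF is present, and on its withdrawal leave the cell cycle and turn on myelin genes under Olig2, Sox10 and Myrf. Position along the head-to-tail axis is written in homeobox genes: the Hox clusters are silent in the telencephalon and active in the hindbrain and spinal cord, whereas Emx2 and Lhx2 mark the telencephalon. Many of these genes lie under the Polycomb mark H3K27me3 where they are off, a mark that the K27M histone lowers genome-wide, and K27M gliomas of children arise mainly along the midline, often in the pons.

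The labelled tissue and genotype were checked first. H3f3a (chromosome 1, 180800832 to 180813943 in GRCm38), whose reads include those of the knock-in allele and may be shared with near-identical H3.3 copies, had 503 to 661.6 CPM (read counts normalised to library size) in K27M brainstem wells and 513.7 to 627.2 CPM in K27M telencephalon wells, and its regional log2 fold change was 0.01 ± 0.17 (SE, adjusted p = 0.987). Prm1, whose sequence is part of the Cre construct, averaged 78.9 and 88.1 CPM in K27M brainstem and telencephalon wells, against 0.00667 and 0 CPM in control wells of the same regions. Olig2, Sox10 and Mbp were present in every well. K27M libraries held 32.5 M to 74.0 M read pairs (brainstem) and 29.4 M to 53.7 M (telencephalon). The mitochondrial share of counts was 1.81% to 4.91% in K27M brainstem wells and 5.59% to 7.71% in K27M telencephalon wells, with no overlap. Telencephalon line 38 was sequenced as batch 1, telencephalon lines 41 and 42 as batch 2, brainstem line 38 as batch 3, and brainstem lines 41 and 42 as batch 4. No batch held both regions, so region and sequencing batch cannot be told apart in any value below. Passage number also differed: 4, 2 and 4 in K27M brainstem lines 38, 41 and 42, against 3 (4 in 1 well), 1 and 1 in the telencephalon lines of the same numbers. These are pooled cultures, and fewer cells of a type cannot be told apart from less RNA per cell.

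Of 21332 genes tested on the line sums, 316 (1.48%) passed an adjusted p of 0.05 (edgeR quasi-likelihood, Benjamini-Hochberg). The 190 that were higher in K27M brainstem cells made up 0.891% of the tested genes, and the 126 that were lower made up 0.591%. The regional difference had the same sign in all 3 culture numbers for 315 of the 316 genes. These genes were called on the same 3 cultures, so their agreement in sign is no separate support. Over all 21332 tested genes 4250 were higher and 4661 lower in all 3. Among all tested genes 1432 (6.71%) had 9 brainstem wells that did not overlap the 9 telencephalon wells, and 271 of the 316 were among them. The median size of a called difference was 1.96 on the log2 scale and 258 of them were at least 2-fold, whereas the median over all tested genes was -0.01. A fit on the wells themselves, which treats wells of a line as replicates, passed 6339 of 17913 genes (35.4%). Every K27M line moved the count by over 1.5 times: it was 117, 100 and 119 without brainstem line 38, 41 or 42, and 173, 74 and 86 without telencephalon line 38, 41 or 42. Without culture number 38, 41 or 42 in all 4 groups it was 146, 6 and 33. All 316 genes kept their sign in each of these 9 fits, but only Hoxa5, Hoxb2, Irx1, Itga9 and Lhx2 passed in every one. With passage number as a covariate 2930 genes passed.

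Genes of hindbrain position were the most different between the regions. Hox genes, the homeobox genes that give cells behind the midbrain their axial address, were expressed in K27M brainstem cells and were at or near 0 in K27M telencephalon cells. Of 39 Hox genes 24 were tested, 13 rose in K27M brainstem cells and none fell, with a median log2 fold change of 6.02 against -0.01 over all genes (5.69 with genes near 0 set to their counting bounds). Among the genes that rose were Hoxa2 to Hoxa5, Hoxb2 to Hoxb4, Hoxc4 and Hoxd4. The posterior members Hoxa9, Hoxc8, Hoxc9 and Hoxd9 stayed under 0.1 CPM on average in both regions. The summed level of all 39 was 39.0 to 54.5 CPM in K27M brainstem wells and 0.4 to 1.8 CPM in K27M telencephalon wells. The number of called Hox genes fell to 2 without culture 41 and 7 without culture 42.

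Hoxa2, which patterns the second branchial arch and the anterior hindbrain, lies on the minus strand of chromosome 6 (52162417 to 52164831, GRCm38). Its level was 6.72, 7.98 and 10.2 CPM (lowest, median and highest of 9 wells) in K27M brainstem cells and 0, 0 and 0.0352 CPM in K27M telencephalon cells. The 2 regions therefore had 4360 and 2 counts over 9 wells, a ratio of 1518 with a 95% counting interval of 420 to 12540. The fitted log2 fold change was 10.20 ± 0.69 (SE, n = 3 lines a region, adjusted p = 0.000404), and it ran from 9.58 to 13.55 with lines left out, with adjusted p at most 0.067 (without culture 41). Hoxa5, a gene of the hindbrain-to-cervical boundary, had 3.71, 6.29 and 9.37 CPM in K27M brainstem wells and 0, 0 and 0.112 CPM in K27M telencephalon wells, a log2 fold change of 8.53 ± 0.65. Hoxb2 had 4.28, 4.89 and 5.24 CPM against 0, 0.027 and 0.0842 CPM, a log2 fold change of 7.41 ± 0.46. Hoxa4 had 2046 counts over the brainstem wells and 2 over the telencephalon wells, a ratio of 712 (counting interval 197 to 5886). Transcripts of neighbouring Hox genes overlap, and the estimated counts may divide their reads unevenly. Hoxa6 had 112 counts against 0, at least 26-fold higher when the 0 is set to 3 counts over the group, but its adjusted p was 0.125.

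**Figure D1:**
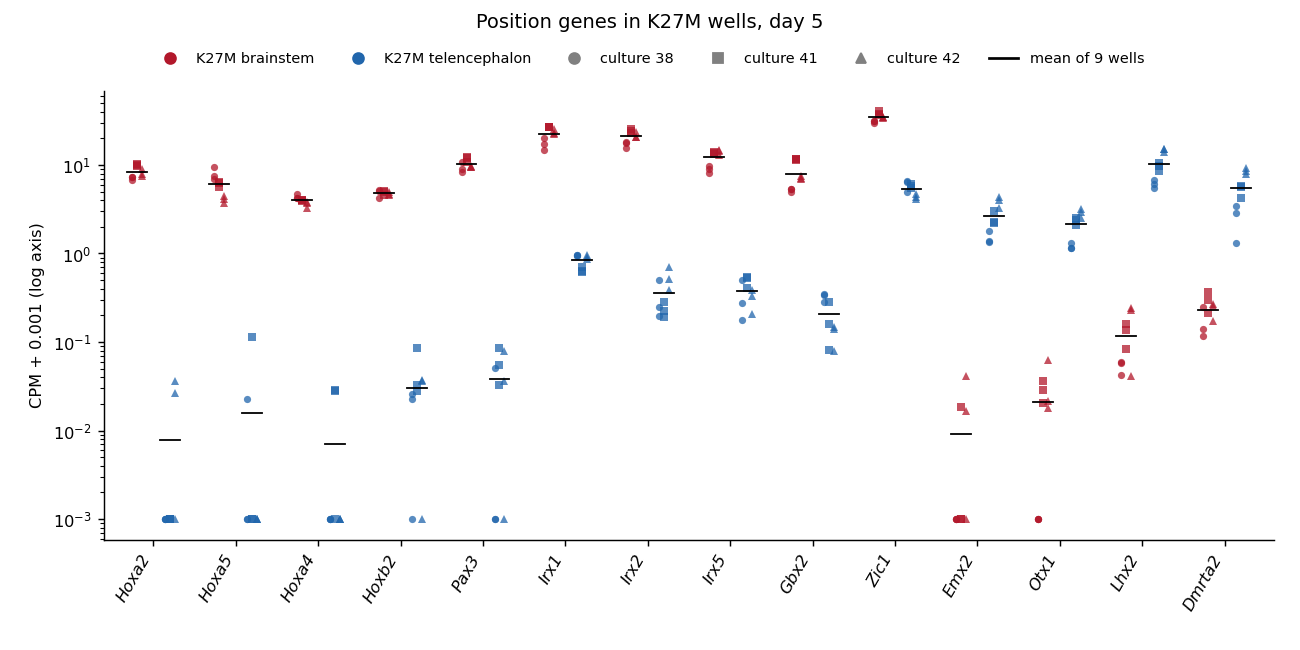
CPM (log axis) of Hox, hindbrain and telencephalic genes in the 9 K27M brainstem and 9 K27M telencephalon wells at day 5, with marker shape giving the culture number, bars giving the mean of 9 wells and wells at 0 drawn at 0.001. Hoxa2 lies between 6.72 and 10.2 CPM in brainstem wells and at or under 0.0352 CPM in telencephalon wells, and Lhx2 shows the opposite arrangement, at 0.24 CPM or less in brainstem wells and 5.47 to 15.3 CPM in telencephalon wells.

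The start-site windows of 2 Hox genes that rose and 2 telencephalic genes that fell are shown because these are the most separated groups of the comparison, and because CG pairs are dense at Polycomb-bound start sites. Each is 300 bases, 250 before and 50 after the start, from RefSeq on GRCm38.p6, read 5′ to 3′ on the gene's strand with CG pairs in capitals: Hoxa2 at chr6:52164782-52165081 (minus), Hoxa5 at chr6:52204538-52204837 (minus), Emx2 at chr19:59458440-59458739 (plus) and Dmrta2 at chr4:109977775-109978074 (plus).
Hoxa2: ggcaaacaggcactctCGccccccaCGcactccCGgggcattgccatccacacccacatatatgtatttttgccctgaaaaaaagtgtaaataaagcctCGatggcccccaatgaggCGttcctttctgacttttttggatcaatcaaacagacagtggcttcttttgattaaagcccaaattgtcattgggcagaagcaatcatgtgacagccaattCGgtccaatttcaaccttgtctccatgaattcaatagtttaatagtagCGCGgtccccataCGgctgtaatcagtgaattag
Hoxa5: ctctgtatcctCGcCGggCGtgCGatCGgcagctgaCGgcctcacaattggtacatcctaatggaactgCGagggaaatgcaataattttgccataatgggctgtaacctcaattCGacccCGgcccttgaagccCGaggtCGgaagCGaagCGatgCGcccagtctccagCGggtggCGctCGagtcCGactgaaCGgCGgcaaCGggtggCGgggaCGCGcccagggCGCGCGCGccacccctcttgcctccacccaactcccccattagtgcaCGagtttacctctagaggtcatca
Emx2: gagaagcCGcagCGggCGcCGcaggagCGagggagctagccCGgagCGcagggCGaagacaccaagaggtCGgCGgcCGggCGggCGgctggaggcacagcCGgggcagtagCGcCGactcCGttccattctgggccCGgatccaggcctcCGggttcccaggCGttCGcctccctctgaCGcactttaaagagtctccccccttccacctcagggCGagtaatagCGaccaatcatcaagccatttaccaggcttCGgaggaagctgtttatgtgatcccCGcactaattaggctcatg
Dmrta2: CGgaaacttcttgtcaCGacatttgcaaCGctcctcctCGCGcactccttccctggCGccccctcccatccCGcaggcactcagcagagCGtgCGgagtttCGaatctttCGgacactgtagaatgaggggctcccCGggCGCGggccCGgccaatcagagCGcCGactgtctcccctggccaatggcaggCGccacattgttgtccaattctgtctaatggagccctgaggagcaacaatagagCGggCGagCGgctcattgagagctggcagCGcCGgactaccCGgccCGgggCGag
The Hoxa2 window held 9 CG pairs, a number that 45.8% of all RefSeq start windows reach, and the Hoxa5 window held 29, which 12.9% reach. The Emx2 and Dmrta2 windows held 26 each, which 16.9% reach. Of the 13 called Hox genes 9 matched the table, with a median of 14 CG pairs (4 to 29), and 8 of the 11 called telencephalic genes matched with 12 windows and a median of 21.5 (6 to 34), whereas the median of all 32851 windows was 7. The letters TGATNNAT, the core that Pbx and Hox proteins bind together, were searched on both strands and were in 1 of the 9 Hox windows (11.1%), that of Hoxa2, in none of the telencephalic windows and in 2906 of all windows (8.85%).

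Other hindbrain and dorsal patterning genes followed. Of 28 listed 20 were tested, and 7 rose in K27M brainstem cells with none falling, among them Gbx2, Irx1, Irx2, Irx5 and Pax3 (list median 0.82). Pax3, a dorsal neural tube factor, had 8.34, 9.67 and 12.5 CPM in K27M brainstem wells and 0, 0.0352 and 0.0842 CPM in K27M telencephalon wells, a log2 fold change of 8.09 ± 0.68 (adjusted p = 0.00109). The Iroquois genes, which partition the neural plate, were present at lower but clear levels in the telencephalon: Irx1 had 14.9, 23.2 and 27 CPM in brainstem wells against 0.621, 0.906 and 0.963 CPM in telencephalon wells, a log2 fold change of 4.72 ± 0.31. Irx2 had 15.7, 20.8 and 25.2 CPM against 0.189, 0.281 and 0.699 CPM (log2 fold change 5.85 ± 0.49), and Irx5 differed by 5.10 ± 0.27. Gbx2, which sets the hindbrain side of the midbrain-hindbrain boundary, varied by line, with mean levels of 5.22, 11.6 and 7.19 CPM in brainstem lines 38, 41 and 42 against at most 0.352 CPM in any telencephalon well. Its log2 fold change was 5.58 ± 0.94 (adjusted p = 0.026), and it passed in 2 of the 9 fits with lines left out. The midbrain-hindbrain genes En1 and En2 and the cerebellar lip gene Atoh1 did not pass, with log2 fold changes of 1.37, 0.30 and -0.50.

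Among Zic genes and the TALE cofactors with which Hox proteins bind DNA, 3 of 14 rose: Zic1, Zic4 and Meis1 (list median 0.30). Zic1 had 29.8, 34.8 and 40.3 CPM in K27M brainstem wells against 4.15, 5.45 and 6.63 CPM in K27M telencephalon wells, a log2 fold change of 2.71 ± 0.26 (adjusted p = 0.00179). Meis1 had 72.5, 85.6 and 101.5 CPM against 39.1, 45 and 49.9 CPM, a log2 fold change of 0.99 ± 0.11 (adjusted p = 0.00363). Meis2 and Pbx2 had log2 fold changes of -0.11 and -0.01 and did not pass. Without culture 41 or without culture 42 none of the 14 passed, the adjusted p of Zic1 being at most 0.136.

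Genes of telencephalic identity were the mirror image. Of 23 listed 18 were tested, 11 fell in K27M brainstem cells and none rose. Emx2, Lhx2, Otx1, Dlx1, Dlx2, Gsx2 and Dmrta2 were among those that fell, with a list median of -5.20 (-5.14 with genes near 0 set to their bounds). Emx2, a dorsal cortical patterning gene, had 0, 0 and 0.0407 CPM against 1.36, 2.27 and 4.4 CPM, a log2 fold change of -8.30 ± 0.53. Lhx2, which maintains cortical identity, had 0.0407, 0.0822 and 0.24 CPM against 5.47, 9.75 and 15.3 CPM, a log2 fold change of -6.45 ± 0.50 (adjusted p = 0.000705), and it passed in all 9 fits with lines left out. Dmrta1 averaged 10.7 CPM in K27M brainstem wells and 10.8 CPM in K27M telencephalon wells and did not pass (log2 fold change -0.01). The list had 1 called member without culture 41 (Lhx2) and 2 without culture 42.

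The telencephalon lines were not alike in these genes. Lhx2 averaged 6.13, 9.61 and 14.7 CPM in telencephalon lines 38, 41 and 42, Emx2 averaged 1.52, 2.49 and 3.89 CPM, and Dmrta2 averaged 2.52, 5.22 and 8.64 CPM. The order was the same for the fibrillar collagen Col3a1 (0.533, 3.95 and 17.1 CPM) and for Gfap, the intermediate filament of astrocytes (303, 1832 and 3328 CPM). In K27M brainstem lines 38, 41 and 42 Gfap averaged 375, 1064 and 643 CPM. Line 38 was the only telencephalon line of its sequencing batch and had the highest passage number, and the part of these in the order was not tested.

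In the oligodendrocyte lineage the OPC genes were split. Of 24 tested, 5 rose in K27M brainstem cells (C1ql1, Vcan, Sema3d, Cspg5 and Sox6), none fell, and the list median was 0.18. Vcan, the gene of the matrix proteoglycan versican (chromosome 13, 89655312 to 89742509, GRCm38), had 146.4, 159.6 and 182.4 CPM in K27M brainstem wells and 30.6, 37.7 and 43.7 CPM in K27M telencephalon wells. Every brainstem well was over 3-fold above every telencephalon well, and the log2 fold change was 2.13 ± 0.18 (adjusted p = 0.00109, 0.0991 without culture 41). C1ql1, a secreted C1q-like protein of OPCs, had 30.1, 50.3 and 57.5 CPM against 2.93, 5.15 and 9.9 CPM, a log2 fold change of 2.99 ± 0.50 (adjusted p = 0.0244), but it passed in none of the 9 fits with lines left out. Sema3d, a secreted semaphorin, had 30, 44.6 and 55 CPM against 9.77, 11.1 and 13.3 CPM, a log2 fold change of 1.97 ± 0.26. Cspg5, a membrane proteoglycan, had 121.6, 144.5 and 158.7 CPM against 48.8, 60.1 and 91.8 CPM, a log2 fold change of 1.1 ± 0.19. Sox6, which holds OPCs back from differentiating, averaged 137.9 CPM in K27M brainstem wells and 69.4 CPM in K27M telencephalon wells, a log2 fold change of 0.99 (adjusted p = 0.0036). From 0 to 3 OPC genes passed when lines were left out.

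The genes that define the lineage did not pass in the main test. Pdgfra, the PDGF receptor by which the cells were panned, had 147.5, 173.3 and 234.6 CPM in K27M brainstem wells and 74.4, 84.4 and 104.1 CPM in K27M telencephalon wells. These wells did not overlap, yet over lines its log2 fold change of 1.13 ± 0.25 had an adjusted p of 0.0734. Sox10, the lineage factor that activates myelin genes, had 88.7, 122.8 and 137.6 CPM against 168.2, 222.9 and 272.6 CPM, again without overlap, with a log2 fold change of -0.94 ± 0.21 (adjusted p = 0.0686). Olig1 and Olig2 had log2 fold changes of -0.45 ± 0.24 and -0.13 ± 0.14. The proteoglycan NG2 gene Cspg4 had 0.20 ± 0.48 and Gpr17, a receptor of committed progenitors, had -0.01 ± 0.32. None of 26 genes of committed and newly formed oligodendrocytes passed (median -0.15). Of these results 2 depended on the setting. In the edgeR fit of all 4 days described below, Pdgfra (1.15, adjusted p = 0.0156) and Sox10 (-0.91, adjusted p = 0.00852) passed at day 5. The p-values of that fit take no account of a line being shared between days. Olig1, Olig2, Cspg4 and Gpr17 did not pass there either.

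Myelin genes were high in both regions at day 5. Mbp, the main cytoplasmic myelin protein, had 8381, 10850 and 11780 CPM in K27M brainstem wells and 10370, 14440 and 16690 CPM in K27M telencephalon wells, and its log2 fold change of -0.34 ± 0.22 did not pass (adjusted p = 0.47). Mag, an adhesion protein of the inner myelin wrap, had 2263, 2797 and 3358 CPM against 3284, 4283 and 6349 CPM (log2 fold change -0.58 ± 0.26, adjusted p = 0.288). Cnp and Mog had log2 fold changes of -0.44 and -0.49 and also did not pass. Of 43 myelin genes tested 41 had values below 0, with a list median of -0.47 against -0.01 over all genes, but the line-level test called only Ceacam20, at 0.693, 1.04 and 1.29 CPM against 2.53, 2.96 and 3.76 CPM (log2 fold change -1.51 ± 0.25, adjusted p = 0.024). Ceacam20 passed in 1 of the 9 fits with lines left out, with adjusted p up to 0.384. The fit on wells, which treats wells of a line as replicates, called 35 of the 43 lower, against 3329 of 17913 genes over all. At the line level 10379 of all 21332 tested genes had values above 0. The regional difference was not the same in the 3 culture numbers: its list median was -0.95 in culture 38, -0.47 in culture 41 and -0.08 in culture 42. Mbp averaged 9527, 10720 and 11700 CPM in K27M brainstem lines 38, 41 and 42 and 16470, 14710 and 10780 CPM in the telencephalon lines of those numbers. Summed over the list the wells had 40300 to 51430 CPM in K27M brainstem cells and 50270 to 86120 CPM in K27M telencephalon cells. The 24 genes of cholesterol synthesis, which supplies the main lipid of myelin, had a median of -0.32, with 22 below 0 and none called (21 lower in the fit on wells).

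Cell cycle genes lay the other way. All 37 had values above 0, with a median of 0.60, and 30 were higher in K27M brainstem cells in all 3 culture numbers. Over all 21332 tested genes 10379 had values above 0 and 4250 were higher in all 3. None of the 37 passed at the line level. The fit on wells, which treats wells of a line as replicates, called 28 higher, against 3010 of 17913 genes over all. Mki67, the proliferation marker, had 118.4, 126.7 and 162.5 CPM in K27M brainstem wells and 60.1, 71.7 and 103.6 CPM in K27M telencephalon wells, with no overlap, and a log2 fold change of 0.76 ± 0.36 (adjusted p = 0.321). Ccnb1, the mitotic cyclin B1, had 32.4, 41 and 57.8 CPM against 22, 24.9 and 30.7 CPM (log2 fold change 0.81 ± 0.35, adjusted p = 0.274). The list medians in cultures 38, 41 and 42 were 0.44, 0.56 and 0.76. In control cells the median of the same list was 0.95, also with no gene called.

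**Figure D2:**
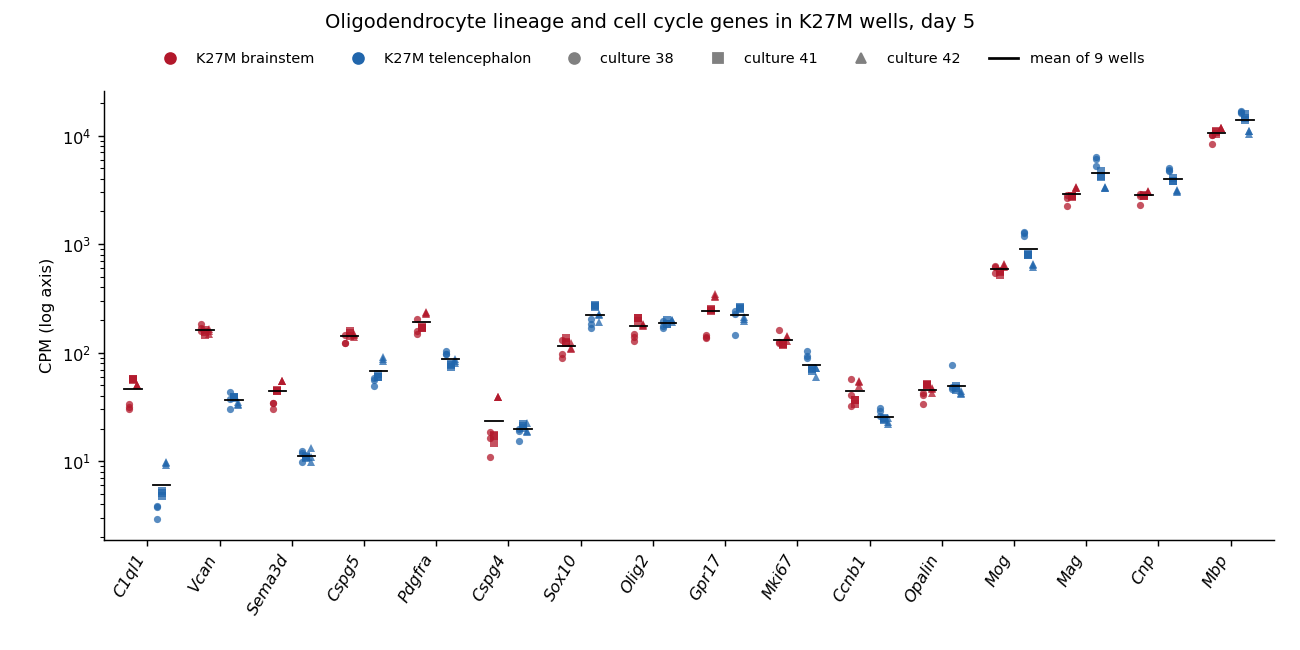
CPM (log axis) of OPC, cell cycle and myelin genes in the 9 K27M brainstem and 9 K27M telencephalon wells at day 5, with marker shape giving the culture number and bars giving the mean of 9 wells. Vcan, C1ql1 and Sema3d separate the regions, and for Mbp, Mag and Mog the telencephalon line of culture 42 lies closest to the brainstem wells.

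Among signalling genes few members of each list differed. In the BMP pathway 2 of 41 rose in K27M brainstem cells, the homeobox targets Msx1 and Msx2 (list median 0.08). Msx1 had 2.41, 4.08 and 5.09 CPM in K27M brainstem wells against 0.278, 0.437 and 0.783 CPM in K27M telencephalon wells, a log2 fold change of 2.95 ± 0.32 (adjusted p = 0.00363), and Msx2 differed by 3.06 ± 0.47. The ligand Bmp4 had a log2 fold change of -0.62 ± 0.33 and did not pass (adjusted p = 0.378). In the Wnt pathway 1 of 55 rose: Lgr5, the R-spondin receptor, had 10.2, 14.1 and 15.7 CPM against 0.929, 1.43 and 1.74 CPM, a log2 fold change of 3.26 ± 0.21 (adjusted p = 0.000379). None of 30 Notch genes passed. In the TGFb pathway the receptor Tgfbr1 rose by 0.41 ± 0.08 and Ltbp1, which tethers latent TGFb to matrix, fell by 1.48 on the log2 scale. Over all tested genes 0.891% rose and 0.591% fell, and nothing about these lists is read from single calls. Of the 9 fits with lines left out, Lgr5 passed in 8, Msx1 in 7, Msx2 in 4, Ltbp1 in 3 and Tgfbr1 in none. Without culture 41 none of the 5 passed, with adjusted p values of 0.067 (Lgr5), 0.146 (Ltbp1), 0.158 (Msx1), 0.408 (Msx2) and 0.566 (Tgfbr1), and Tgfbr1 had an adjusted p of 0.0609 without the passage 4 well of telencephalon line 38.

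Adhesion and matrix genes changed in both directions. Itga9, an integrin subunit, had 18.2, 22.3 and 37.5 CPM in K27M brainstem wells and 1.93, 2.97 and 4.01 CPM in K27M telencephalon wells, a log2 fold change of 3.10 ± 0.28 (adjusted p = 0.00153), and passed in all 9 fits with lines left out. Itga8 fell, at 20.1, 25.9 and 32.9 CPM against 31.4, 44.8 and 70.1 CPM (log2 fold change -0.73 ± 0.13). The laminin chains went opposite ways: Lama4 had 10.6, 14.2 and 16.5 CPM against 2.51, 3.39 and 4.66 CPM (log2 fold change 1.95 ± 0.32), whereas Lama2 had 5.74, 6.02 and 6.98 CPM against 16.2, 27.7 and 41.1 CPM (log2 fold change -2.05 ± 0.32). In all 2 of 28 integrin and laminin genes rose and 2 fell. Of 43 collagen and matrix genes Col2a1 rose (log2 fold change 2.24 ± 0.36), and 3 fell, among them Col27a1 at 15.1, 17.7 and 20.1 CPM against 37.3, 42.4 and 52.4 CPM. Col3a1 ranged from 0 to 0.316 CPM in K27M brainstem wells and from 0.0251 to 20.3 CPM in K27M telencephalon wells. These ranges overlapped, and its log2 fold change of -6.46 ± 1.16 (adjusted p = 0.0328) did not pass in any of the 9 fits with lines left out. Of 60 axon guidance genes Efna5, Sema3a and Ephb2 rose. Sema3a, a repulsive guidance cue, had 12.9, 16.8 and 18.4 CPM against 1.73, 2.3 and 4.04 CPM, a log2 fold change of 2.70 ± 0.47, and the ephrin ligand Efna5 differed by 3.25 ± 0.55. Apart from Itga9, each gene named in these 3 lists passed in at most 2 of the 9 fits.

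**Figure D3:**
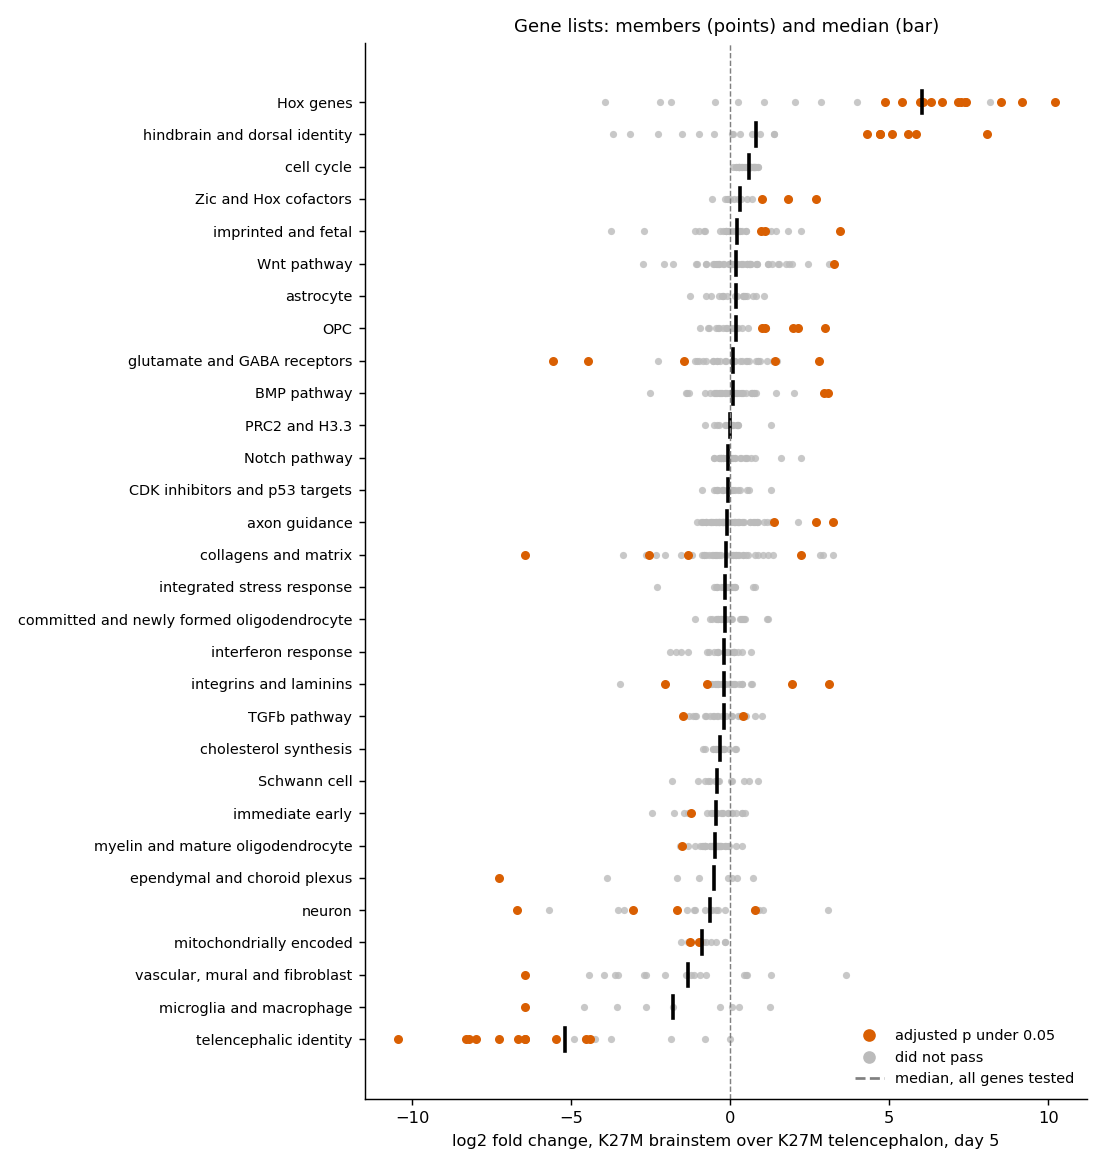
Log2 fold change (x axis, K27M brainstem over K27M telencephalon, day 5 line sums) of the tested members of 30 gene lists, orange where the adjusted p was under 0.05 and grey otherwise, with a black bar at each list's median and a dashed line at the median of all genes. The Hox median of 6.02 and the telencephalic median of -5.20 stand apart, and most other lists lie between -1 and 1.

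Receptor and neuronal genes also differed by region. The AMPA receptor subunit Gria4 had 91, 104.6 and 117.4 CPM in K27M brainstem wells and 32, 39.1 and 48 CPM in K27M telencephalon wells, a log2 fold change of 1.42 ± 0.17 (adjusted p = 0.00555). The metabotropic glutamate receptor Grm3 had 10.5, 11.8 and 12.7 CPM against 0.919, 1.54 and 2.98 CPM, a log2 fold change of 2.79 ± 0.42 (adjusted p = 0.0173). Grm4, another metabotropic glutamate receptor, averaged 0.73 CPM against 2.02 CPM, a log2 fold change of -1.46 ± 0.28 (adjusted p = 0.0466). Of the 9 fits with lines left out Gria4 passed in 7, Grm3 in 3 and Grm4 in none. Together 2 of 34 glutamate and GABA receptor genes rose and 3 fell. Slc18a3, the vesicular acetylcholine transporter of motor and other cholinergic neurons, which lies within an intron of Chat (chromosome 14, 32462438 to 32464850), had 4.8, 6.19 and 14.9 CPM against 0.0219, 0.297 and 0.402 CPM, a log2 fold change of 4.83 ± 0.45 (adjusted p = 0.00171). Chat, which makes acetylcholine, differed by 5.26 ± 0.57 (adjusted p = 0.00363). Slc18a3 was highest in brainstem line 41 (13.6 CPM on average, 5.9 and 5.5 CPM in lines 38 and 42).

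Of 21 neuronal markers Map2 rose, at 308 and 183 CPM on average, and Slc17a6, Camk2a and Gng3 fell. Gng3, a G protein gamma subunit, had 2.59, 3.16 and 4.73 CPM against 9.61, 11 and 13.5 CPM, a log2 fold change of -1.67 ± 0.17 (adjusted p = 0.00265). Of the 9 fits with lines left out Gng3 passed in 6, Map2 in 1 and Camk2a in none. Slc17a6, the vesicular glutamate transporter, rested on 1 count in K27M brainstem wells and 61 in K27M telencephalon wells. The summed neuronal level was 795 to 949 CPM in K27M brainstem wells and 886 to 980 CPM in K27M telencephalon wells. Map2 was part of this sum, which is not read as a share of neurons, and the list median was -0.635. The GABA-synthesizing enzymes Gad1 and Gad2 averaged 0.644 and 0.403 CPM in K27M brainstem wells and 12 and 5.78 CPM in K27M telencephalon wells, and did not pass (adjusted p = 0.2 and 0.085). The part of neurons in the values of the Dlx genes was not tested.

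Genes of other cell types were compared in the same way. None of 18 astrocyte markers passed (median 0.19). Gfap ranged from 336 to 1151 CPM in K27M brainstem wells and from 232.4 to 3531 CPM in K27M telencephalon wells, and the summed astrocyte level was 2551 to 4537 CPM against 1168 to 7762 CPM. Of 9 tested microglial markers C1qc fell, on 1 count in K27M brainstem wells and 76 in K27M telencephalon wells. C1qa and C1qb were at 0 in all K27M brainstem wells and had 86 and 24 counts over the telencephalon wells, mostly in line 42, where C1qa averaged 0.82 CPM. Csf1r and Tyrobp, also on the microglial list, each had 1 count in K27M brainstem wells, against 87 and 133 in K27M telencephalon wells. The microglial list median was -1.80. The summed microglial level was 28.4 to 38.7 CPM against 24.4 to 38.2 CPM, and in K27M brainstem wells nearly all of it came from other members of the list. Of 18 tested vascular, mural and fibroblast markers only Col3a1 passed, and the summed level was 28.6 to 43.2 CPM in K27M brainstem wells and 25.1 to 99.9 CPM in K27M telencephalon wells. No Schwann cell marker passed. Of 8 ependymal and choroid plexus markers the telencephalic factor Otx2 fell. The part of these cells in the collagen values was not tested.

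Imprinted and fetal genes rose in 3 of 31 cases: Lin28b, Nnat and Peg10. Lin28b, an RNA-binding protein of fetal progenitors, had 3.14, 3.47 and 5.28 CPM in K27M brainstem wells and 0.108, 0.34 and 0.603 CPM in K27M telencephalon wells, a log2 fold change of 3.45 ± 0.53 (adjusted p = 0.0186). Nnat had 113, 223.1 and 275.8 CPM against 80.3, 104.5 and 117.2 CPM, with a small overlap and a log2 fold change of 1.09 ± 0.14. Peg10 had 41.5, 51.7 and 114.2 CPM against 22.5, 28.5 and 36.7 CPM (log2 fold change 0.96 ± 0.18, adjusted p = 0.0383), and its adjusted p was 0.052 without the passage 4 well of telencephalon line 38. Lin28b passed in 3 and Peg10 in 2 of the 9 fits with lines left out. None of 18 genes of Polycomb repressive complex 2 and H3.3 handling passed (median -0.00): Ezh2, the methyltransferase, had 27.9 to 43.8 CPM against 25.6 to 42 CPM. None of 20 Cdk inhibitor and p53 target genes passed, and Cdkn2a stayed under 1 CPM in every well of both regions.

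Mitochondrially encoded transcripts were lower in K27M brainstem wells in sum, at 8594 to 10650 CPM against 12580 to 16930 CPM. All 13 had values below 0 (median -0.89), whereas 10379 of all 21332 tested genes had values above 0. The 2 called members mt-Nd4 and mt-Atp6, each of which overlaps a neighbouring mitochondrial gene, fell. Of these mt-Nd4 had 114.1, 163.9 and 453.9 CPM against 304.2, 430.3 and 532.8 CPM and a log2 fold change of -1.27 ± 0.25 (adjusted p = 0.0485, 0.0537 without the passage 4 well of telencephalon line 38). Of the 9 fits with lines left out mt-Nd4 passed in 1 and mt-Atp6 in none. The part of RNA quality or library preparation in this was not tested. Among 25 immediate early genes Arc fell, at 20.4, 23.7 and 31.3 CPM against 50.2, 60.7 and 69.4 CPM (log2 fold change -1.25 ± 0.20), and it passed in 1 of those 9 fits. No gene of the interferon response (22 tested), of the integrated stress response (22 tested) or of the sex-linked set (5 tested) passed.

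The largest falls among protein-coding genes with at least 5 CPM in the telencephalon also included Dio2, Fbln2 and Camk2b. Dio2, which converts thyroid hormone to its active form, had 0.618, 1.09 and 1.36 CPM in K27M brainstem wells and 2.64, 6.96 and 9.68 CPM in K27M telencephalon wells, a log2 fold change of -2.54 ± 0.46 (adjusted p = 0.0333, 0.444 without culture 41). Fbln2, the matrix protein fibulin-2, had 1.97, 2.85 and 3.93 CPM against 7.26, 19.1 and 22.6 CPM, a log2 fold change of -2.54 ± 0.49, and passed in none of the 9 fits with lines left out. Camk2b, a calcium-dependent kinase subunit, had 2.01, 2.8 and 3.15 CPM against 7.28, 13.3 and 20.1 CPM, a log2 fold change of -2.30 ± 0.22 (adjusted p = 0.00171), and passed in 8 of the 9.

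The regional difference was also compared at days 0, 1 and 2, day 0 being cells still in the expansion medium. Each day had its own wells, and passage number differed between days. K27M brainstem line 38 was at passage 5, 6, 5 and 4 at days 0, 1, 2 and 5. Line 42 of that region was at passage 1 or 5, 5, 6 and 4 at the same days. The part of passage in differences between days was not tested. A fit of all 4 days, on 48 line sums of both genotypes with group and culture number as terms, tested 23003 genes. The sums of 1 line at different days entered it as separate replicates. Its p-values therefore take no account of a line being shared between days. In this fit 543, 728, 354 and 1101 genes differed between K27M brainstem and K27M telencephalon cells at days 0, 1, 2 and 5. Hoxa2 averaged 13.7, 11.5, 10.3 and 8.42 CPM at days 0, 1, 2 and 5 in K27M brainstem cells and at most 0.00827 CPM at any of these days in K27M telencephalon cells. Lhx2 averaged 0.256, 0.278, 0.0778 and 0.116 CPM at the same days in K27M brainstem cells and 15.3, 10.8, 7.27 and 10.2 CPM in K27M telencephalon cells. The wells of the regions did not overlap for either gene at any day. Lgr5 averaged 38, 31.3, 19.1 and 13.7 CPM in K27M brainstem cells and 9.85, 6.25, 3.54 and 1.41 CPM in K27M telencephalon cells.

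Some regional differences were larger at day 5. Vcan averaged 191.9, 324.5, 324.1 and 160.6 CPM at days 0, 1, 2 and 5 in K27M brainstem cells and 150.7, 232.3, 199.8 and 36.6 CPM in K27M telencephalon cells. Its regional log2 difference was larger at day 5 than at day 0 by 1.80 ± 0.29 (adjusted p = 0.00207) and than at day 2 by 1.43 ± 0.29 (adjusted p = 0.0388). Lama4 averaged 94.6, 51.3, 45.4 and 14 CPM against 92.3, 32.6, 36.7 and 3.52 CPM at the same days, a gain of 1.93 ± 0.37 over day 0 (adjusted p = 0.0185) that missed the threshold over day 2 (1.68 ± 0.37, adjusted p = 0.0829). Gria4 averaged 124.1, 152.5, 155.5 and 104.1 CPM against 90.3, 121.9, 125.6 and 39.1 CPM, a gain of 1.14 ± 0.21 over day 2 (adjusted p = 0.0182) that missed the threshold over day 0 (0.97 ± 0.21, adjusted p = 0.0523). Pdgfra averaged 1106, 641.1, 384.8 and 190.6 CPM against 1356, 976, 488.7 and 86.7 CPM, and its gain of 1.43 ± 0.41 over day 0 did not pass (adjusted p = 0.178). The change of the regional difference passed for 20 genes from day 0 to day 5 (0.0869% of those tested) and for 13 genes from day 2 to day 5 (0.0565%). These tests and genes were chosen after their values were seen.

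Myelin gene means were higher at later days in both regions, without a test of day. Mag averaged 31.9, 189.7, 897.4 and 2884 CPM at days 0, 1, 2 and 5 in K27M brainstem cells and 1.46, 77.4, 946.2 and 4528 CPM in K27M telencephalon cells. At day 0 Mag was higher in K27M brainstem cells (log2 difference 4.56, adjusted p = 0.0323), and at days 2 and 5 the values of -0.07 and -0.63 did not pass. Mki67 averaged 958, 533.6, 298.5 and 131.3 CPM in K27M brainstem cells and 693.2, 322.1, 197.1 and 77.8 CPM in K27M telencephalon cells.

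**Figure D4:**
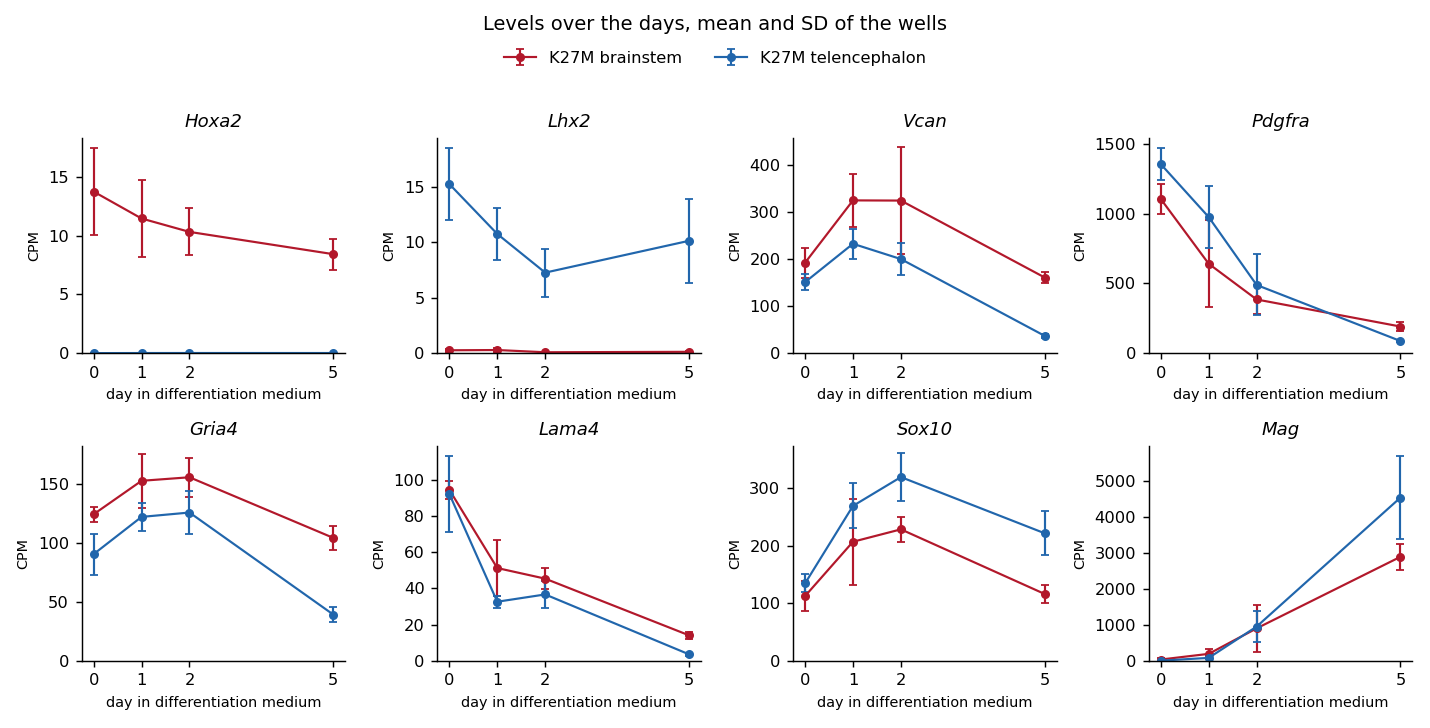
Mean CPM (linear axes from 0) of 8 genes at days 0, 1, 2 and 5 of differentiation in K27M brainstem and K27M telencephalon cells, with bars giving the SD over wells. Hoxa2 and Lhx2 lie apart between the regions at every day, and Vcan is at 160.6 CPM in brainstem and 36.6 CPM in telencephalon cells at day 5.

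The same regional contrast in control cells called 195 genes (0.914% of those tested), 77 higher (0.361%) and 118 lower (0.553%) in brainstem cells. Control cells shared the media but differed in more than the mutation. For its single-cell samples the paper describes littermate controls as having no Cre and H3-3a expressed from 1 allele. At day 5 H3f3a averaged 572 and 577.3 CPM in K27M brainstem and telencephalon cells, and 372.7 and 286.9 CPM in control cells of these regions. The control brainstem libraries also differed from the K27M ones in other ways. Line 41 was at passage 5 with a mitochondrial share of 10.6% to 11.6%. Line 42 was at passage 7 with 6.3% to 8.8%, and 1 well of line 38 held 454.1 M read pairs. Genes with a count numbered 29442 to 33752 in wells of control brainstem line 41 and 24905 to 32659 in those of line 42. K27M brainstem wells had 23488 to 26761. The part of these in the comparison of genotypes was not tested beyond the counts that follow. The control count was 54 and 77 without control brainstem line 41 or 42, 107 and 85 without K27M brainstem line 41 or 42, 71 and 117 without K27M telencephalon line 41 or 42, and 986, 2 and 7 without culture number 38, 41 or 42. Of the 316 K27M genes 282 had the same sign in controls, and 82 were called in both genotypes (25.9% of the K27M calls and 42.1% of the control calls), all with the same sign. Agreement in sign was not counted over all tested genes, so the 282 have no share to be set against. The 2 contrasts share no libraries, but they share the estimate of spread and the culture block. Of the Hox genes 13 were called in each genotype, with a control median of 5.80. Of the telencephalic genes 11 were called in K27M and 6 in control cells, with a control median of -2.15. By culture number the median control difference of this list was -2.70 in culture 38, -0.26 in culture 41 and -2.38 in culture 42. The OPC list had 5 higher in K27M and 1 lower in control cells.

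A test of the difference itself, the regional log2 difference in K27M minus that in control cells, passed for 0 of 21332 genes (0%). The lowest adjusted p was 0.336, 2865 genes had an unadjusted p under 0.05 and 174 of the 316 K27M genes were among these. The 316 were chosen by their K27M difference, which is itself a term of this test. That choice raises the 174, and nothing about genotype is read from it. DESeq2 on the same line sums passed 301 genes. For Lhx2 the log2 difference was -6.45 ± 0.50 in K27M cells and -2.41 ± 0.42 in control cells, where it averaged 1.84 CPM (brainstem) and 9.26 CPM (telencephalon). In control cultures 38, 41 and 42 the Lhx2 difference was -3.25, -0.88 and -3.01. Slc18a3 differed by 4.83 ± 0.45 in K27M cells and 1.13 ± 0.39 in control cells, with control means of 2.1 and 0.93 CPM. Vcan differed by 2.13 ± 0.18 in K27M cells and 0.89 ± 0.18 in control cells, with control means of 63.3 and 33.5 CPM. Gbx2 differed by 5.58 ± 0.94 and 1.80 ± 0.87, Sox6 by 0.99 and -0.07, and Lama4 by 1.95 ± 0.32 and 0.22 ± 0.31. In the opposite sense Bmp4, a BMP ligand of committed progenitors, differed by -0.62 ± 0.33 in K27M cells and by -2.60 ± 0.36 in control cells (adjusted p = 0.0168 in controls). No single one of these differences between genotypes passed after adjustment. Apart from Bmp4, these genes were called in K27M cells, a choice that by itself favours larger values in K27M than in control cells. Zic4 and Lgr5 had nearly equal values, at 1.80 and 1.78 for Zic4 and 3.26 and 3.13 for Lgr5 in K27M and control cells.

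**Figure D5:**
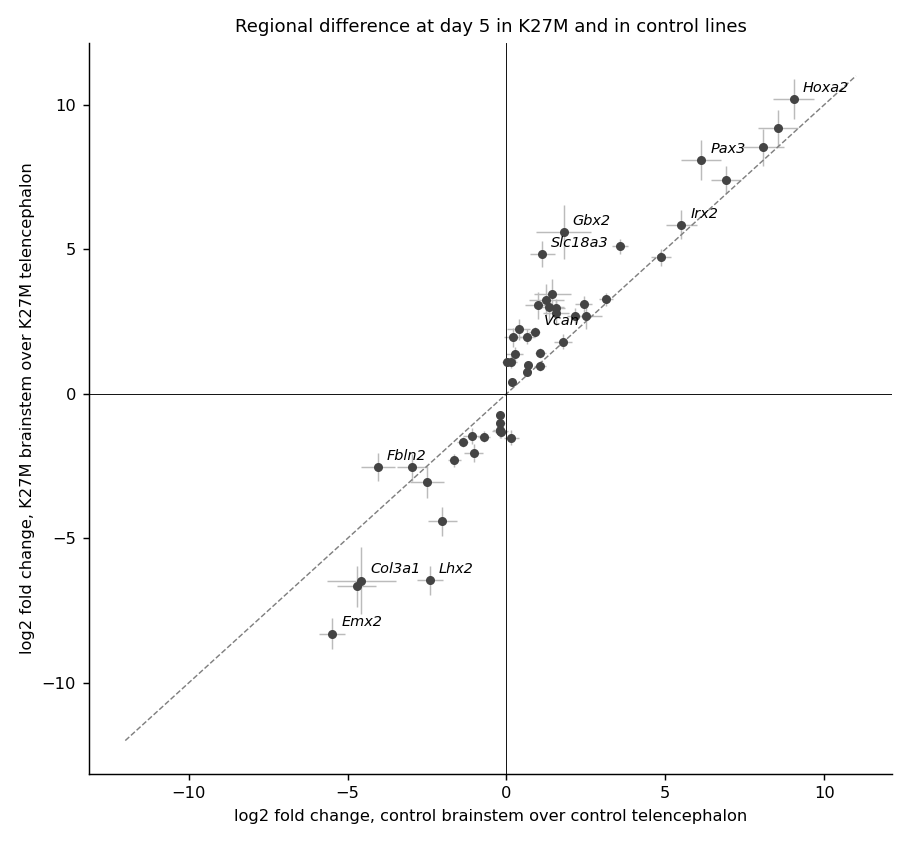
Regional log2 fold change (brainstem over telencephalon, day 5) of the 52 named genes that passed in K27M cells, K27M on the y axis and control on the x axis, with bars giving the SE and the dashed diagonal marking equal values. Irx2 lies near the diagonal, and Lhx2 and Slc18a3 lie farther from 0 in K27M than in control cells, with no gene passing the test of the difference. The genes were chosen for passing in K27M cells, which by itself favours points farther from 0 on the K27M axis.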

How the data were processed

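Stranded total RNA libraries were sequenced as paired reads by the authors. The deposited files hold, per library and transcript, expected counts, TPM and an effective length from Salmon 1.10.1 (mm10, per the submitters' processing notes). Per the study's methods Salmon ran selective alignment with genomic decoys and the GENCODE vM25 annotation, with its sequence and GC bias corrections on. Expected counts were estimated by the authors and were summed here per gene with GENCODE M21 (139821 of 141084 transcripts matched, 54127 genes), rounded, and summed over the wells of each culture line. The deposited TPM values were not used for tests, and the deposited effective length served for an offset alternative only. CPM values are per well after TMM scaling over all 142 libraries.

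The main test was edgeR 4.0.16 in R 4.3.3 (TMM, filterByExpr, glmQLFit, glmQLFTest) on the 12 day 5 line sums, with group and culture number as terms and Benjamini-Hochberg adjustment at 0.05. DESeq2 1.42.0 was an alternative. Log2 fold changes are brainstem over telencephalon, with SE from the F statistic. Intervals on count ratios are at 95% and cover counting error only, as do bounds that set a group at 0 to 3 counts. Nothing in the labels says that the litters behind the culture numbers were shared between regions. The p-values measure the spread between lines that is left after the culture number term, estimated over both genotypes together.

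The text names up to 8 protein-coding genes a direction, those of largest fold change among called genes that had 1 sign in 3 cultures and at least 5 CPM in the higher region, and also up to 4 called members of each of 31 lists with at least 1 CPM, and a set of anchor genes, 77 in all. Some genes are not reported here. Gene lists and members were chosen with earlier results of these data known. Genes outside that rule (such as Sox6, Gad1, Slc17a6 and C1qa) were named after their values were seen. Promoter sequences came from RefSeq (GRCm38.p6). No 2 wells of a K27M day 5 line agreed within sampling noise (18 pairs).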

Additional observations from a re-analysis of the deposited data

Results flagged for a closer look

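Among 154 groups of 9 wells examined for the named genes, 11 (7.14%) had a highest or lowest well whose gap to the next exceeded Dixon's 95% critical value. That value holds for 9 independent wells, whereas each group had 3 wells from each of 3 lines. The 7.14% therefore has no chance rate to be set against. Well 3 of K27M brainstem line 38 held 4 of these 11: its Cnp level was the lowest, at 2269 CPM (next 2755), and its levels of Efna5 (9.302 CPM, next 4.142), Peg10 (114.2 CPM, next 57.25) and mt-Nd4 (453.9 CPM, next 189.2) were the highest. Without this well 351 genes were called in place of 316, and Ephb2 was the one named call that was lost (adjusted p = 0.0541). Well 3 of K27M telencephalon line 38, the only well of that line at passage 4, had the highest Itga8 (70.05 CPM, next 46.95) and Opalin (77.05 CPM, next 49.08). Without it 308 genes were called.

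The other 5 concerned low levels. Col3a1 was 0.316 CPM in well 1 of K27M brainstem line 41 (next 0.07717), and Emx2 was 0.04073 CPM in well 3 of K27M brainstem line 42 (next 0.01756). Grm4 was 2.956 CPM in well 2 of K27M telencephalon line 42 (next 2.209). Well 3 of K27M telencephalon line 41 had the highest Hoxa5 (0.1123 CPM, next 0.02189) and Hoxb2 (0.08423 CPM, next 0.03639) of the telencephalon wells.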

How the results depend on the processing

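All 52 named genes that passed kept their sign in all 25 alternative settings, including the 5 chosen after seeing the data (leaving out control brainstem line 41 or 42, the deepest control well, or well 3 of either K27M line 38). The number of genes called did not. For the K27M contrast (316), the control contrast (195) and the difference between genotypes (0) it was 6339, 8458 and 5972 with wells in place of line sums, 2967, 4591 and 3335 with DESeq2 on wells at a fold threshold of 1.1, 1491, 2304 and 301 with DESeq2 on line sums, 772, 1042 and 64 with no filter on low counts, 1101, 2010 and 511 with all days in one fit, and 2930, 59 and 2 with passage as a covariate. The cause of the passage result was not tested. With a culture or line left out the counts ran from 6 to 442 for K27M, from 2 to 986 for controls and stayed at 0 for the difference. Without culture 41 in all groups 47 of the 52 named calls were lost, and with the K27M lines alone 9 were lost.

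Without the replicate block 281, 234 and 0 genes were called, 238 of the 281 among the 316, and 5 named calls were lost. Deviations of same-numbered brainstem and telencephalon lines correlated at 0.186, 0.126 and 0.0144 in K27M cells and at 0.337, 0.4 and -0.152 in control cells across genes for cultures 38, 41 and 42, so the numbers were not shown to pair the lines, and not every line correlated best with its own number.

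Of the 25 named genes that did not pass, 11 changed sign in 1 or more settings. H3f3a was -0.01585 with wells, -0.01971 with DESeq2 on wells, -0.004886 with the K27M lines alone, -0.1189 with passage and -0.008426 without well 3 of telencephalon line 38. With passage as a covariate Prm1 was 0.3074, Cspg4 -0.3902, Gfap 1.111 and Cdkn2a -0.5115. Gpr17 was 0.1244 without the block, 0.05204 with no filter, 0.009016 with a mean CPM of at least 1, 0.02792 with the K27M lines alone and 0.103 with all days. Ezh2 was 0.02001 with no filter and 0.01146 with the effective length offset. With lines left out log2 fold changes ran from -0.06067 to 0.1206 for H3f3a, -0.2489 to 0.1692 for Prm1, -0.2267 to 0.01503 for Olig2, -0.3505 to 0.593 for Cspg4, -0.3046 to 0.332 for Gpr17, -0.3248 to 0.1427 for Opalin, -0.9171 to 0.8307 for Aqp4, -0.07628 to 0.08198 for Ezh2 and -0.1031 to 1.115 for Zdbf2.

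List medians moved beyond their spread in 66 of 775 list and setting pairs. Depth limited genes near 0, such as Hoxa2 in telencephalon wells, where 2 counts over 9 wells set the ratio.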

Other observations

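Y-linked transcripts were nearly absent from one culture number in both regions of K27M cells. The Y-linked gene Ddx3y averaged 37.3, 51.7 and 1.09 CPM in K27M brainstem lines 38, 41 and 42, and 61.4, 34.2 and 0 CPM in the K27M telencephalon lines of the same numbers. Eif2s3y, another Y-linked gene, averaged 25.3, 32.1 and 0.593 CPM in the brainstem lines and 29, 18.7 and 0 CPM in the telencephalon lines. The order of lines 38 and 41 differed between the regions. In control cells Ddx3y averaged 12.6 CPM (brainstem) and 27.3 CPM (telencephalon) in culture 42.

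The imprinted locus gene Zdbf2 ranged from 0.246 to 9.83 CPM in K27M brainstem wells and from 0.0364 to 9.04 CPM in K27M telencephalon wells, a wide spread in both regions with a log2 fold change of 0.50 ± 0.75 that did not pass (adjusted p = 0.77).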
